A study of Mus musculus with 2 samples.

Results

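Genes that hold cells back from dividing were followed across 3 sorted populations of mouse small intestinal epithelium. The list held 10 genes chosen by symbol: Cdkn1a, Cdkn1b, Cdkn1c, Cdkn2c, Cdkn2d, Btg1, Btg2, Ccng1, Ccng2 and Gadd45a. Of these, 9 had a probe named in the platform annotation, 1 probe each, among 16390 named genes on the array. Probes for Cdkn2d were not analysed here. All 9 probes were above background in all 4 channels and none was saturated.

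All animals carried Atoh1-crePGR, Lgr5-EGFP-IRES-creERT2 and Rosa26-tdTomato, so every fraction shared these alleles, and all received RU486, the ligand of CrePGR, by intraperitoneal injection on 5 consecutive days. EGFP reports Lgr5, the marker of crypt base columnar stem cells. Cre under the control of Atoh1, a transcription factor of the secretory lineage, turned on tdTomato in Atoh1-expressing cells and their descendants. Cells of 4 mice were pooled 20 days after Cre induction and sorted into EGFP+ve/tdTomato-ve (EGFP only), EGFP+ve/tdTomato+ve (double positive) and EGFP-ve/tdTomato+ve (tdTomato only) fractions. The sources used here do not give the age of the mice. EGFP-only RNA was labelled with Cy5 on both two-colour arrays, against double-positive RNA in Cy3 on the first and tdTomato-only RNA in Cy3 on the second. With 1 biological replicate of each fraction, the ratios carry neither an error between replicates nor a test, and a gene was counted when it reached 2-fold.

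Cyclin-dependent kinases (CDKs) bound to cyclins drive a cell from G1 into DNA synthesis, and 2 families of proteins restrain them. The Cip/Kip family, encoded by Cdkn1a (p21), Cdkn1b (p27) and Cdkn1c (p57), binds cyclin-CDK complexes, whereas the INK4 family, which includes Cdkn2c (p18) and Cdkn2d (p19), binds Cdk4 and Cdk6. Btg1 and Btg2 are antiproliferative proteins that recruit the CCR4-NOT deadenylase to messenger RNAs. Ccng1 and Ccng2 encode cyclins G1 and G2, atypical cyclins linked to growth arrest, and Gadd45a encodes a protein induced by DNA damage. In the intestine, division is confined to the crypt, and cells leave the cycle as they differentiate and move towards the villus; p21 is known to be present in such postmitotic cells.

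The members fell into separate patterns. Cdkn1a and Btg2 were at least 2-fold above the EGFP-only level in both tdTomato fractions, and Ccng1 lay at about 2-fold in both. Cdkn1b, Cdkn1c, Cdkn2c and Ccng2 lay slightly below the EGFP-only level in both. Gadd45a lay below the EGFP-only level in double-positive cells and above it in tdTomato-only cells. In double-positive cells 3 of 9 members were at least 2-fold higher and 0 were 2-fold lower, where 5.1% of 11774 measured genes were 2-fold higher and 0.34% lower. In tdTomato-only cells 2 of 9 were at least 2-fold higher and 0 lower, against 6.15% of 11381 genes higher and 1.19% lower. The list was chosen with earlier results of these data known, so setting its counts against these shares is not a test. The median log2 ratio of the 9 members was −0.20 in double-positive cells, where the median of all genes was −0.01. In tdTomato-only cells these medians were 0.52 for the members and −0.01 for all genes. Median centring without loess gave −0.15 for the members and −0.21 for all genes. The middle member passed from Cdkn1b (−0.20) to Btg1 (0.52) because Gadd45a crossed 0. In tdTomato-only over double-positive cells the median was 0.004 for the members and −0.02 for all genes. Within bulk fractions, fewer cells of a type and less RNA per cell cannot be told apart.

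**Figure D1:**
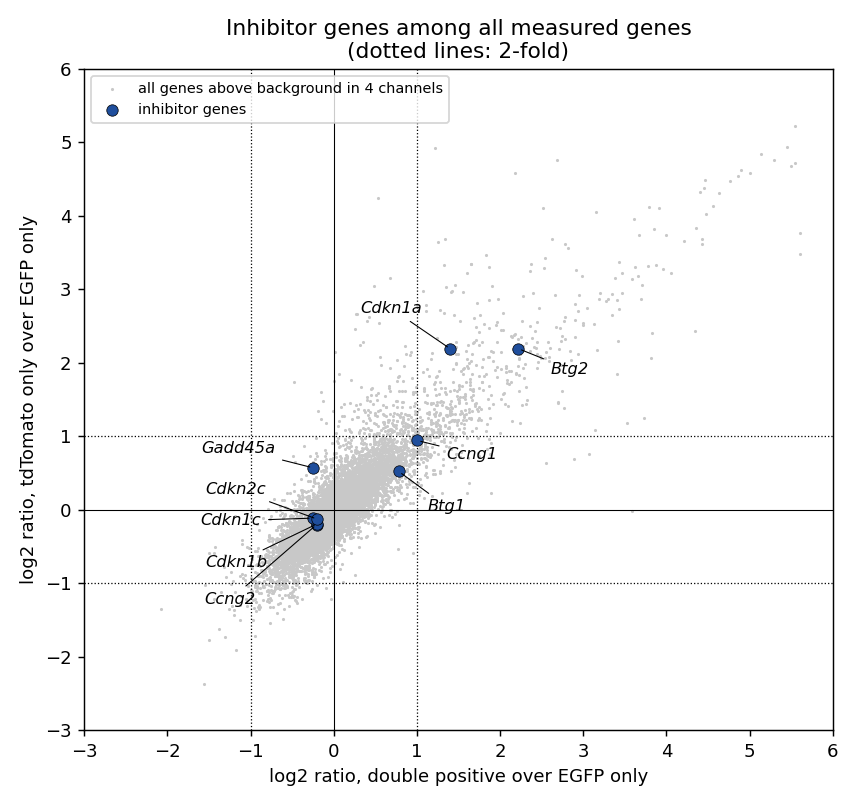
Each point is a gene above background in all 4 channels, placed by its log2 ratio in double-positive over EGFP-only cells (horizontal) and in tdTomato-only over EGFP-only cells (vertical); the 9 inhibitor genes are blue and labelled, and dotted lines mark 2-fold. Cdkn1a (1.40 and 2.19) and Btg2 (2.22 and 2.19) lie at the upper right, 4 members lie together just below 0 on both axes, and Gadd45a (−0.25 and 0.57) lies on opposite sides of 0.

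The whole measurement sets the scale for these values. The EGFP-only channel, measured on both arrays, differed between them by an SD of 0.083 (log2, 15641 probes), which describes technical spread only. For the 9 members, the second EGFP-only level minus the first lay between −0.08 (Btg2) and 0.22 (Btg1). Ratios depended on the normalization. Of genes past 2-fold, 93.8% were higher in double-positive cells and 83.8% in tdTomato-only cells, but these shares were 74.5% and 67.4% when the blank mean was subtracted, 77.7% and 64.9% in the authors' deposited ratios, 82.8% and 69.7% under quantile normalization, and 33.0% and 32.4% under median centring alone. Median centring put the median of all genes at −0.21 in both comparisons, so values under it are read against that shift.

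Cdkn1a encodes p21, the inhibitor that p53 induces after DNA damage and that also accompanies differentiation. Its spot median intensity in scanner units was 198 in the first and 214 in the second EGFP-only channel, 379 in the double-positive channel and 696 in the tdTomato-only channel, with blank spots at means of 68.5 to 78.6. Both Cy5 measurements were alike, and the tdTomato-only spot was the brighter of the 2 Cy3 spots. After loess normalization Cdkn1a was 2.64-fold higher in double-positive cells (log2 ratio 1.40) and 4.55-fold higher in tdTomato-only cells (2.19). These ratios exceeded those of 96.9% and 98.5% of measured genes. Filters on dim probes and the rule for several probes cannot change a member with 1 probe above background in all channels, so 3 of the 8 alternatives were fixed for all members. Over all settings the ratios of Cdkn1a ranged from 1.01 to 1.79 and from 1.76 to 2.60, so the gene stayed past 2-fold in each. The measured order was EGFP only, double positive and tdTomato only, and with 1 sample of each fraction this order has no replicate check.

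Cdkn1a has annotated starts at separate positions in RefSeq (GRCm38.p6), and the 250 bases before 2 of them are shown because p21 is the member best known as a p53 target. The upstream window, chr17:29090729-29090978 on the plus strand, holds 2 matches to a 10-base p53 half-site, called the p53 element here. The downstream window, chr17:29093519-29093768 on the plus strand, holds 2 GC boxes (GGGCGG). Capitals mark these matches.
Cdkn1a upstream start: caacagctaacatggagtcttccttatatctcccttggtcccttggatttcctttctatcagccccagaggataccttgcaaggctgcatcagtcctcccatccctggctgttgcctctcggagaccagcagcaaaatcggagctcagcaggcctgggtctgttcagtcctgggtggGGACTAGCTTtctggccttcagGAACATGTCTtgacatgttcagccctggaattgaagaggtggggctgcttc
Cdkn1a downstream start: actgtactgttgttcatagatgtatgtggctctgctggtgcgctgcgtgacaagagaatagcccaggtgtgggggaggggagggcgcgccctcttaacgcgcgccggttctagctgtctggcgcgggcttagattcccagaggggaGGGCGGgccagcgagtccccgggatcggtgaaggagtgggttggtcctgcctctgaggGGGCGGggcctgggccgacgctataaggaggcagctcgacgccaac
Windows were searched on both strands for the p53 element, the GC box, the CCAAT box (CCAAT), the TATA box (TATAAA) and the cyclic AMP response element (CRE, TGACGTCA). Among 32851 RefSeq windows of this length, 7.13% hold a p53 element, 32.7% a GC box, 33.8% a CCAAT box, 12.4% a TATA box and 1.55% a CRE. A match describes the letters and does not show a bound factor.

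**Figure D2:**
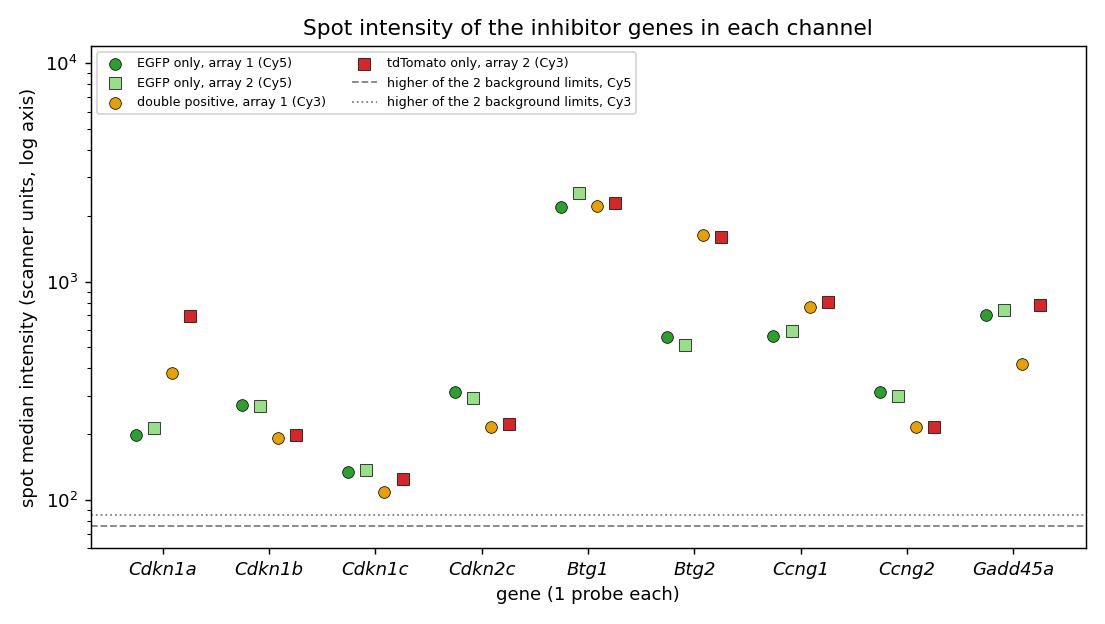
Spot median intensity (scanner units, log axis) of the 9 inhibitor genes, with 1 point for each of the 4 channels; grey lines mark the higher of the 2 background limits for each dye. Cy3 and Cy5 intensities cannot be set against each other without normalization, but between the 2 Cy3 points Cdkn1a (379 and 696) and Gadd45a (417 and 778) are far apart, while Btg2, Ccng1 and Ccng2 nearly coincide.

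The other Cip/Kip genes did not share this pattern. Cdkn1b, whose product p27 holds quiescent cells in G1, had EGFP-only intensities of 273 and 268, and 193 in double-positive and 198 in tdTomato-only cells. Its log2 ratios were −0.20 and −0.19, below 0 in all 9 settings (down to −0.56 and −0.54 with median centring), and 23.4% and 27.6% of genes had lower ratios. Cdkn1c, the imprinted inhibitor p57, had spots near the background limits of 74.1 to 85.4, at 134 and 137 in the EGFP-only channels, 109 in double-positive and 124 in tdTomato-only cells. Its log2 ratios of −0.25 and −0.12 became −0.59 and −0.29 in the authors' deposited ratios, which subtract the blank level. The difference between the log2 ratios of Cdkn1a and Cdkn1b was 1.60 in double-positive and 2.38 in tdTomato-only cells, and it lay between 1.57 and 2.06 and between 2.29 and 2.86 over all settings.

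Of the INK4 genes in the list, Cdkn2c alone was measured. Its intensities were 312 and 294 in the EGFP-only channels, 215 in double-positive and 222 in tdTomato-only cells. The log2 ratios were −0.20 and −0.13, and −0.34 and −0.35 in the authors' deposited ratios. Cdkn1b, Cdkn1c, Cdkn2c and Ccng2 were thus at most 1.19-fold below the EGFP-only level in the main setting, whose offset shrinks the ratios of dim genes, and each lay below it in all 9 settings. When blank subtraction replaced normexp before loess, Cdkn1c reached −0.60 in double-positive cells. With a single array per comparison, differences of this size cannot be judged against biological spread.

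Btg2, an immediate early and p53-inducible antiproliferative gene, was the member furthest above EGFP only in double-positive cells. Its intensities were 555 and 512 in the EGFP-only channels, 1641.5 in double-positive and 1593 in tdTomato-only cells. It was 4.65-fold higher in double-positive (log2 2.22) and 4.57-fold higher in tdTomato-only cells (2.19), above 98.7% and 98.5% of genes, and over all settings the log2 ratios ranged from 1.64 to 2.36 and from 1.66 to 2.34. Both tdTomato fractions were alike, with tdTomato only minus double positive at −0.03 (−0.10 to 0.02 over settings).

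Btg2 is itself an immediate early gene, and 14 of 17 listed genes induced by tissue dissociation or early after stimulation were measured. Of the 14 genes, 4 were at least 2-fold higher in double-positive and 6 in tdTomato-only cells, and 0 were 2-fold lower in either. Medians were 0.72 on the log2 scale in both (0.17 and 0.19 at their lowest over settings). In double-positive cells 9 lay above 0 and 5 below (lowest −0.38), and in tdTomato-only cells 13 above and 1 below. Egr1 stood at 1.49 and 1.15, Fos at 0.80 and 1.09 and Jun at 1.13 and 0.98. These genes, named after their values were seen, had lower ratios than Btg2, and median centring put Fos at −0.14 in double-positive cells. Summed over the 14 probes, intensity above blank was 25160 and 25510 in the EGFP-only channels, 25250 in the double-positive and 31160 in the tdTomato-only channel. These sums were not normalized, so those in Cy5 (EGFP only) and those in Cy3 cannot be set against each other. Their part in the ratio of Btg2 was not tested.

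Btg1, the close relative of Btg2, had intensities of 2201 and 2552 in the EGFP-only channels, 2210 in double-positive and 2299.6 in tdTomato-only cells. Its log2 ratios were 0.78 (1.72-fold) and 0.52 (1.43-fold), under 2-fold in all settings. Median centring gave 0.06 and −0.15, where the median of all genes was −0.21 in both comparisons. The sign in tdTomato-only cells thus turned under that setting, but the ratio stayed above the median of all genes. The log2 ratio of Btg2 exceeded that of Btg1 by 1.44 in double-positive and 1.67 in tdTomato-only cells, and by at least these values in every setting. Lymphocytes are known to express Btg1 strongly, and markers of T cells and intraepithelial lymphocytes were higher in the same fractions. Of 12 measured markers, 11 were at least 2-fold higher in double-positive cells (median log2 2.29) and 6 in tdTomato-only cells (1.17). Their summed intensity above blank, not normalized between the dyes, was 1762 and 1683 in the EGFP-only channels, 13180 in the double-positive and 5782 in the tdTomato-only channel. Of the 14 probes, 12 were above background in each EGFP-only channel. The part of these cells in the Btg1 ratio was not tested.

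The window of Btg2 is shown because it ranked highest among the members in double-positive cells. It spans chr1:134079156-134079405 on the minus strand and holds a CRE, 2 CCAAT boxes and 3 GC boxes, of which the first and second overlap by 1 base. The window of Ccng1, chr11:40755287-40755536 on the minus strand, holds 1 p53 element and 3 CCAAT boxes. Capitals mark the matches.
Btg2: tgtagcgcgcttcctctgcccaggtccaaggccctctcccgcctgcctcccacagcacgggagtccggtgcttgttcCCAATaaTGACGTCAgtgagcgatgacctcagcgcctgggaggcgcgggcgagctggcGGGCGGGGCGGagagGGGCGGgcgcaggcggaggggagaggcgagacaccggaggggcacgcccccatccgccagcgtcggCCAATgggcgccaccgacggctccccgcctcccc
Ccng1: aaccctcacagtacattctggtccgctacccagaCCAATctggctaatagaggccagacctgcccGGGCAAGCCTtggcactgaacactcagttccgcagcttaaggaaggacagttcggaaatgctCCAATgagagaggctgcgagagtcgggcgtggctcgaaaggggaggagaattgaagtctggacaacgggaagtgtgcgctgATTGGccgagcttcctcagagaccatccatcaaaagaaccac
Of the 10 genes, 9 had windows, 11 windows in all. A p53 element was found in a window of Cdkn1a, Ccng1, Gadd45a and Cdkn2d, and a CRE in that of Btg2. Among all RefSeq windows, 7.13% hold the first and 1.55% the second.

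Ccng1, encoding the p53-inducible cyclin G1, had intensities of 565 and 593 in the EGFP-only channels, 762 in double-positive and 808 in tdTomato-only cells. It was 2.01-fold higher in double-positive (log2 1.00) and 1.92-fold higher in tdTomato-only cells (0.94), above 94.9% and 93.3% of genes. It lay so near 2-fold that the setting decided the count. The log2 ratio in double-positive cells was 0.95 in the authors' deposited ratios and 0.48 with median centring, and in tdTomato-only cells it reached 1.04 with an offset of 10. Ccng2, encoding cyclin G2, which is known to be raised in resting cells, had intensities of 313 and 300.3 in the EGFP-only channels, 215 in double-positive and 216 in tdTomato-only cells. Its log2 ratios were −0.20 in both comparisons (−0.35 and −0.45 in the authors' deposited ratios). The log2 ratio of Ccng1 exceeded that of Ccng2 by 1.21 and 1.14, and by 1.01 or more in every setting.

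Gadd45a was the only member on opposite sides of the EGFP-only level. Its intensities were 700.2 and 739.75 in the EGFP-only channels, 417 in double-positive and 778 in tdTomato-only cells. The log2 ratio was −0.25 in double-positive cells, below 0 in all 9 settings, and 0.57 in tdTomato-only cells, above 0 in all 9. Opposite signs were not rare, at 16.8% of 11311 genes above background in all 4 channels, and both ratios lay within 2-fold.

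**Figure D3:**
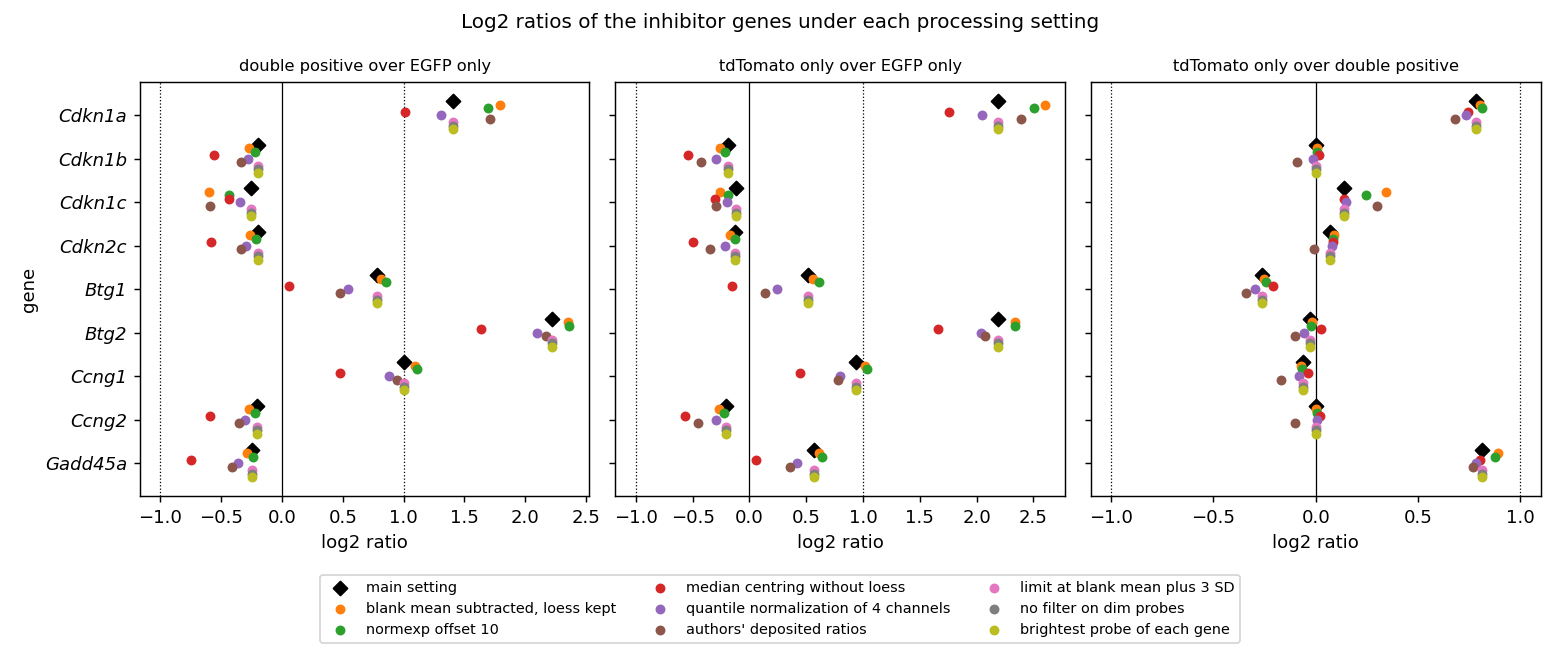
Log2 ratios of the 9 inhibitor genes in the 3 comparisons, with the main setting as a black diamond and 8 alternatives as coloured points; dotted lines mark 2-fold. Cdkn1a and Btg2 stay past 2-fold against EGFP only in every setting, Ccng1 lies around the 2-fold line, and median centring without loess (red) gives the lowest ratio to EGFP only of most members.

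Setting tdTomato-only against double-positive cells, by the difference of the log2 ratios of both arrays, showed 0 of 9 members past 2-fold in either direction, where 0.813% of 11311 genes were 2-fold higher and 0.274% lower. Gadd45a (0.82, 1.76-fold) and Cdkn1a (0.78, 1.72-fold) had the highest differences of the 9 members. Their ranks from the top of 11311 genes were 147 and 164, and their ranges over the planned settings were 0.77 to 0.89 and 0.68 to 0.81. The other 7 members lay between −0.26 and 0.14. Btg1 had the lowest value, −0.26, but its EGFP-only level also differed by 0.22 between arrays, and its Cy3 levels alone differed by −0.04. Goblet cell markers were higher in the same comparison (10 of 10 above 0, median log2 0.92), as were enterocyte markers (10 of 10, median 0.28), enteroendocrine markers (10 of 12, median 0.53) and tuft cell markers (6 of 6, median 0.20). Lymphocyte markers were lower (11 of 12 below 0, median −0.998), as were crypt base stem cell markers (11 of 13, median −0.55). Paneth cell markers were lower too (6 of 6 below 0, median −0.315), as were proliferation genes (31 of 33, median −0.30). Probes saturated in Cy3 on both arrays were left out here, so 6 of 9 Paneth and 10 of 11 goblet cell markers entered. How these genes and cell types bear on Cdkn1a and Gadd45a was not tested.

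Paneth, goblet and enterocyte markers were higher in the fractions where Cdkn1a and Btg2 were higher, whereas enteroendocrine markers were mostly lower, 11 of 12 below 0 in each (6 and 1 at least 2-fold lower). Of 9 measured Paneth cell markers, 9 in double-positive and 8 in tdTomato-only cells were at least 2-fold higher, of 11 goblet cell markers 9 and 10, and of 10 enterocyte markers 7 and 8. Summed intensity above blank of the enterocyte markers, not normalized between the dyes, was 12030 and 12760 in the EGFP-only channels, 28920 in the double-positive and 54470 in the tdTomato-only channel. For goblet cell markers these sums were 52330, 45700, 155500 and 313400, and for Paneth cell markers 44040, 46270, 351200 and 335600. Saturated Cy3 spots among the Paneth and goblet cell markers hold down both these sums and the ratios of those genes. Of crypt base stem cell markers, 3 of 14 in double-positive and 7 of 13 in tdTomato-only cells were at least 2-fold lower, with Lgr5 at 0.26 and −0.89 (−0.26 in double-positive cells under median centring). Medians in the same order were −0.89 and −0.31 for enteroendocrine markers, −0.42 (6 of 6 below 0) and −0.01 for tuft cell markers, 0.08 and 0.39 for myeloid or mast cell markers (1.25 and 1.29 in the authors' deposited ratios; 3 of 11 and 1 of 7 at least 2-fold higher in the main setting) and 0.09 and −0.11 for fibroblast, muscle or endothelial markers, the last with 7, 8, 5 and 8 of 12 probes above background by channel. The tuft cell and fibroblast medians in tdTomato-only cells changed sign between settings. The part of any of these cell types in the members' ratios was not tested.

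The relatives of the members showed larger ratios in places. Of 8 measured relatives, of 11 listed, 2 were at least 2-fold higher in double-positive and 3 in tdTomato-only cells, and 0 were 2-fold lower. Gadd45g, a stress-inducible relative of Gadd45a, was 8.75-fold and 5.73-fold higher (log2 3.13 and 2.52), and at least 1.99 on the log2 scale in every setting. Ppp1r15a, the stress-induced phosphatase subunit Gadd34, stood at 1.21 and 1.30. Gadd45b stood at 1.32 in tdTomato-only cells, and Cdkn3, a phosphatase gene expressed in dividing cells, at −0.58 in double-positive cells.

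Most other measured targets of p53 lay within 2-fold of the EGFP-only level, as did most of all measured genes. Of 23 targets measured in double-positive and 22 in tdTomato-only cells, 1 was at least 2-fold higher in each and 0 were 2-fold lower. Over all genes 5.1% were higher and 0.34% lower in double-positive cells, and 6.15% and 1.19% in tdTomato-only cells. The medians of the targets were 0.07 and 0.20, and median centring put these at −0.16 and −0.11. Trp53inp1, which promotes p53-dependent arrest and cell death, was the 1 gene past 2-fold, 3.72-fold and 4.49-fold higher. In double-positive cells the next were Ei24 (0.68) and the exonuclease gene Aen (−0.62), and in tdTomato-only cells the polymerase gene Polk and the death receptor gene Fas (0.89 each). Mdm2, a standard p53 target named after its values were seen, stood at 0.15 and 0.24, and at −0.28 and −0.15 with median centring.

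**Figure D4:**
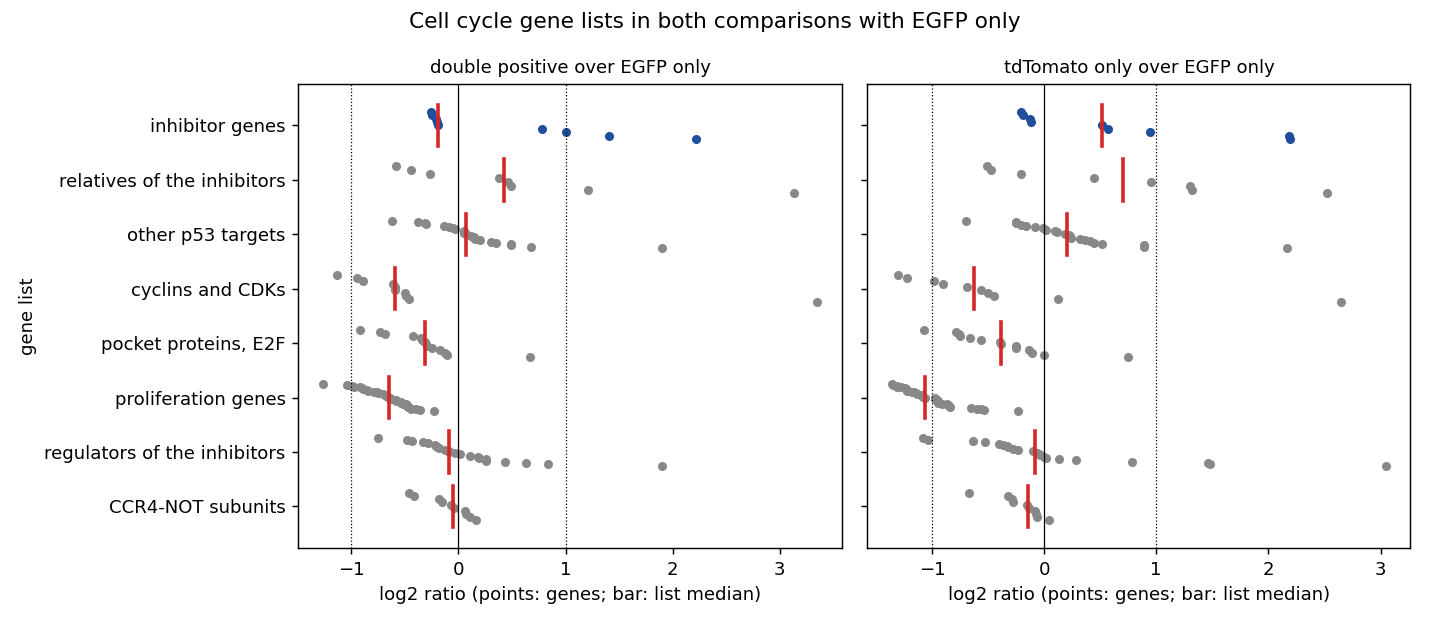
Log2 ratios to EGFP only of each measured gene (points) in 8 lists of cell cycle genes, with a red bar at each list median, for double-positive (left) and tdTomato-only cells (right); dotted lines mark 2-fold. The inhibitor genes (blue) split into a group near 0 and a group to the right, whereas all 33 proliferation genes lie to the left of 0.

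Proliferation genes and most cyclins and CDKs lay below the EGFP-only level. All 33 measured proliferation genes had log2 ratios below 0 in both comparisons, with medians of −0.65 and −1.06. Of them 2 were at least 2-fold lower in double-positive and 17 in tdTomato-only cells, and all 33 stayed below 0 in every setting. Plk1, a mitotic kinase, stood at −1.26 and −1.35, the replication helicase genes Mcm2 at −1.04 in double-positive and Mcm6 and Mcm5 at −1.35 and −1.32 in tdTomato-only cells, and Birc5, which encodes survivin, at −0.99 in double-positive cells. Of 10 cyclins and CDKs, 9 lay below 0 in double-positive and 8 in tdTomato-only cells, with 1 and 2 at least 2-fold lower. Cdk4, the kinase bound by INK4 proteins, stood at −0.95 and −1.22, and Ccna2, the cyclin of S phase, at −1.13 and −1.30. Ccnd3, a D-type cyclin, went the other way and was 10.2-fold and 6.25-fold higher (log2 3.35 and 2.64), past 2-fold in every setting.

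Of 14 pocket protein and E2F genes, 13 lay below 0 in each comparison (medians −0.31 and −0.39), with 0 and 1 at least 2-fold lower. Tfdp1, the E2F partner, stood at −0.92 and −1.07, the pocket protein gene Rbl2 at −0.73 and −0.75, Rbl1 at −0.78 in tdTomato-only cells and Lin9 at −0.69 in double-positive cells. Rb1, named after its values were seen, was the 1 member above 0 (0.67 and 0.75).

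Regulators of the inhibitors were mixed, with medians of −0.09 over 23 and −0.08 over 22 genes. In double-positive cells 1 was at least 2-fold higher and 0 lower, and in tdTomato-only cells 3 were higher and 2 lower. Klf4, a transcription factor of postmitotic intestinal cells that activates Cdkn1a, was 3.74-fold and 8.27-fold higher (log2 1.90 and 3.05), and past 2-fold in all settings. Mxd1, a Myc antagonist, stood at 1.48 in tdTomato-only cells, Klf6, which can activate Cdkn1a, at 0.83 and 1.46, and Skp2, the ubiquitin ligase subunit that targets p27, at −0.75 in double-positive cells. Skp2 (−1.03) and Myc (−1.08) were the 2 regulators 2-fold lower in tdTomato-only cells, named after their values were seen. CCR4-NOT subunits, the partners of Btg1 and Btg2, lay near the EGFP-only level, with 0 of 10 past 2-fold and medians of −0.06 and −0.14. Most measured genes lay within 2-fold too, with 5.1% higher and 0.34% lower in double-positive and 6.15% and 1.19% in tdTomato-only cells. Among the subunits, Cnot9 (−0.46 and −0.67) and Cnot6 (−0.42 and −0.32) were the furthest below. Next came Cnot8 (−0.18) in double-positive and Cnot6l (−0.29) in tdTomato-only cells.

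Genes with the ratios most like those of Cdkn1a and Btg2 were found by Euclidean distance in the 2 log2 ratios over 11311 genes, and both ratios share the EGFP-only population. Nearest to Cdkn1a were Ggt1 (1.37 and 2.14, distance 0.06), Leap2 (1.47 and 2.21, distance 0.07) and Krt20 (1.47 and 2.12, distance 0.09). Nearest to Btg2 were Atp2a3 (2.19 and 2.18, distance 0.03), Rapgef3 (2.16 and 2.18, distance 0.06) and Cbfa2t3 (2.23 and 2.12, distance 0.07). In all, 465 of these genes (4.11%) were at least 2-fold higher on both arrays, of which Cdkn1a and Btg2 are 2.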

How the data were processed

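Amplified RNA of the sorted cells was labelled with Cy3 or Cy5 for 2 two-colour arrays, per the labels' protocols. The authors deposited spot median intensities with no background subtracted, judging from the blank spots, and spots were read at several scanner gains, per the file headers. Normalized log2 ratios, with EGFP only as the denominator per the labels, were deposited too; the sources used here do not give their method. Blank subtraction and centring gave the deposited log2 ratio within 0.02 for 99.99% of probes on each array, and each deposited column had a median of 0.

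Intensities were corrected with normexp (offset 50, no local background) and normalized by loess within arrays, giving control spots and spots marked for quality no weight (limma 3.58.1, R 4.3.3). The offset shrinks ratios, most in dim genes. A probe was above background when its intensity exceeded the blank mean plus 2 SD, met by 67.0% to 77.1% of 23474 probes by channel. The number of arrays limits the precision, and without a dye swap, probe-specific dye effects and differences from EGFP only cannot be told apart; such effects cancel between the 2 Cy3 populations. Probes of a gene were averaged. Symbols came from the platform annotation (16631 named probes), updated through RefSeq synonyms (GRCm38.p6). The comparison of tdTomato-only with double-positive cells is the difference of both arrays' log2 ratios. It left out probes saturated in Cy3 on both arrays. The steps were tested on simulated arrays. Promoter windows came from RefSeq (GRCm38.p6).

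The members and the 17 other lists were chosen with earlier results of these data known. All members are named, with the 3 genes of each other pathway list that had the largest ratio of either sign per comparison with EGFP only, and the 3 nearest genes of members past 2-fold on both arrays. Alternatives changed the background correction, offset, normalization, source of ratios, filter and probe rule.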

Additional observations from a re-analysis of the deposited data

Results flagged for a closer look

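Gadd45a lay below the EGFP-only level in double-positive cells and above it in tdTomato-only cells, and its log2 ratio in the latter minus that in the former was 0.815. The difference was not tested, since each of these fractions was 1 sample on 1 array. Among all genes, 16.8% had opposite signs in both comparisons.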

How the results depend on the processing

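Cdkn1a and Btg2 stayed past 2-fold against EGFP only under all 8 alternatives, of which 3 (both filters and the brightest probe) could not change a member. The number of members past 2-fold higher was 2 or 3 in both comparisons with EGFP only, and 0 were 2-fold lower in any. The members' median log2 ratio in double-positive cells was −0.44 with median centring and −0.34 in the authors' deposited ratios. Median centring put the median of all genes at −0.21 in both comparisons with EGFP only. In tdTomato-only cells the members' median was 0.62 with an offset of 10, −0.15 with median centring, 0.24 after quantile normalization and 0.14 in the deposited ratios. For tdTomato only against double positive it was −0.09 in the deposited ratios (main 0.004), where the median of all genes was −0.08. In the order blank mean subtracted, offset of 10 and deposited ratios, genes past 2-fold in either direction numbered 1575, 1003 and 1951 in double-positive cells (main count 641), 1818, 1271 and 2459 in tdTomato-only cells (main 835), and 369, 195 and 431 in the third comparison (main 123), of which 55.8%, 66.7% and 50.1% were higher (main 74.8%). With median centring the first 2 counts were 1104 and 1257. With only the offset changed to 10, the counts rose over the same numbers of genes (11774, 11381 and 11311). The deposited ratios were counted without the background filter, over 12429, 12489 and 12243 genes. What else moved the counts was not tested. The comparison of both Cy3 levels without the EGFP-only channel was chosen after seeing the data. It gave 0.90 for Cdkn1a, 0.91 for Gadd45a and −0.04 for Btg1, and turned Ccng1 from −0.06 to 0.02. No paired analysis was possible because each population was measured as 1 replicate. Without a second array per comparison no replicate could be left out, and the spots of Cdkn1c lay near the background limits.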
